A study of Homo sapiens with 16 samples.

Results

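The genes described here are those for the proteins of the cytosolic ribosome and for 4 factors of translation elongation. Members were protein-coding genes whose symbol was RPL or RPS and a number, together with RPLP0, RPLP1, RPLP2, RPSA, EEF1A1, EEF1B2, EEF1G and EEF2. RPS6K kinases, RPS27L, readthrough genes and pseudogenes were left out and paralogues were kept. The rule gave 90 of the 60676 gene IDs in the count tables, namely 50 genes of the large subunit, 33 of the small subunit, 3 of the P stalk and 4 elongation factors, and 9 of the 90 were paralogues of another member. Of these, 87 passed the filter on low counts. RPL39L, EEF1G and RPS4Y2 did not. RPS4Y1, a Y-linked paralogue of RPS4X, is included in the counts of members, and its values are not given.

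Total RNA was sequenced from LNCaP cells, an androgen-responsive human prostate adenocarcinoma line, after depletion of ribosomal RNA. The 4 groups were wild-type cells (WT) in the solvent DMSO, WT cells in enzalutamide (EZ), RB-p53 double-knockout cells (DKO) in DMSO, and DKO cells in EZ, with 4 libraries each and 16 in all. EZ, an antagonist of the androgen receptor, was given at 50 µM for 6 days, and all groups shared the LNCaP background and growth in serum. DKO cells were made with CRISPR-Cas9. The labels do not say whether they are a clone or a pool, and nothing in them ties the 4 replicates to separate cultures. The p-values therefore cover the variation among these libraries alone, part of which may be technical.

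A ribosome has a small subunit, which reads the messenger RNA, and a large subunit, which forms the peptide bond. The P stalk of the large subunit, made of RPLP0, RPLP1 and RPLP2, recruits elongation factors. EEF1A1 delivers aminoacyl-tRNA to the ribosome, EEF1B2 and EEF1G belong to the complex that recharges EEF1A1 with GTP, and EEF2 moves the ribosome along the message. Most of these messages begin with a 5′ terminal oligopyrimidine (TOP) tract, a C followed by a run of C and T, through which their translation is controlled together by growth signalling.

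The tract is shown for the members to which the results below return, because it is the sequence feature this family is known for and the choice of members did not use it. Each line gives 20 bases before and 20 bases from the annotated RefSeq start (GRCh38.p14), 5′ to 3′ on the gene's strand, with a tract in capitals. A tract was scored where a C within 3 bases of the start was followed by at least 4 further C or T on the gene's strand.
EEF1A1 (chr6:73521013-73521052, minus strand): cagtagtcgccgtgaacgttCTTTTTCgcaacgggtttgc
EEF2 (chr19:3985444-3985483, minus strand): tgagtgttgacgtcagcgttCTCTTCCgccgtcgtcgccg
RPSA (chr3:39406700-39406739, plus strand): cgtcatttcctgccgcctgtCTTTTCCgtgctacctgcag
RPL13A (chr19:49487588-49487627, plus strand): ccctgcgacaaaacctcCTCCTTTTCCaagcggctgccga
RPS9 (chr19:54200838-54200877, plus strand): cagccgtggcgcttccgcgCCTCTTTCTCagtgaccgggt
RPL3 (chr22:39319604-39319643, minus strand): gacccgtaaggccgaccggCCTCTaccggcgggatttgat
RPL26 (chr17:8383174-8383213, minus strand): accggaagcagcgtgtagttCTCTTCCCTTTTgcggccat
RPS10 (chr6:34426050-34426089, minus strand): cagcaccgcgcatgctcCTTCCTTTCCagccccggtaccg
RPL4 (chr15:66504836-66504875, minus strand): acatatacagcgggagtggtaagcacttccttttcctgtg
EEF1B2 (chr2:206159589-206159628, plus strand): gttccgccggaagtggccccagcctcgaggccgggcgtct

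The first 8 of these starts held a tract and those of RPL4 and EEF1B2 did not. Of the 73 members with an entry in the RefSeq promoter table, 51 (69.9%) had a tract at the start, against 13.1% of all 27305 promoters in that table and 13.5% of the 15842 of protein-coding genes. The absence of a match says only that these letters are not at the annotated start.

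Libraries held 11823438 to 47678648 counts, with a median of 23919882. RB1 stood at 79.4 to 118 CPM (the gene's count scaled by the library's total count) in WT and 9.88 to 14.4 CPM in DKO libraries, so RB1 matched the labelled genotype in all 16 libraries. CPM of the markers and of RN7SL1 were scaled in the same way, while CPM of members below also use edgeR's TMM scaling. All 10 luminal prostate markers were detected. Their sum was 3806 to 5316 CPM in DKO and 5425 to 7925 CPM in WT libraries. Leukocyte markers summed to at most 0.708 CPM, basal markers to at most 1.40 CPM and endothelial markers to at most 17.7 CPM. The 4 fibroblast markers summed to 13.5 to 18.3 CPM in WT and 26.1 to 54.7 CPM in DKO libraries, so both of these lists moved with genotype, and their part in the results was not tested. The libraries fell into 2 sets by RN7SL1, the RNA of the signal recognition particle, with 2201 to 6207 CPM in a high set of 6 libraries and 481 to 1166 CPM in a low set of 10. The high set held replicate 1 of both WT groups and replicates 1 and 2 of both DKO groups. No label names a batch that matches this split, which matters here because many members differed between the sets.

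Members took up 2.87% to 7.82% of all counts in a library, and the share differed both by group and by library set. In WT DMSO the share was 6.92%, 4.36%, 4.09% and 5.11% in replicates 1 to 4, and in WT EZ it was 7.82%, 4.07%, 4.09% and 5.37%. In DKO DMSO it was 5.68%, 5.84%, 4.20% and 4.79%, and in DKO EZ it was 3.86%, 4.11%, 3.04% and 2.87%. DKO EZ had the lowest group mean, 3.47% ± 0.609 (SD, n = 4), against 5.13% ± 0.775 in DKO DMSO, 5.12% ± 1.27 in WT DMSO and 5.34% ± 1.77 in WT EZ. All 4 DKO EZ libraries lay below all 4 DKO DMSO libraries, and only DKO EZ replicate 2 reached the range of the WT groups. The ratio of EZ to DMSO for the same replicate number was 0.680, 0.703, 0.725 and 0.598 in DKO and 1.13, 0.933, 0.999 and 1.05 in WT. In bulk RNA, fewer cells carrying a transcript and less of it per cell cannot be told apart.

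**Figure D1:**
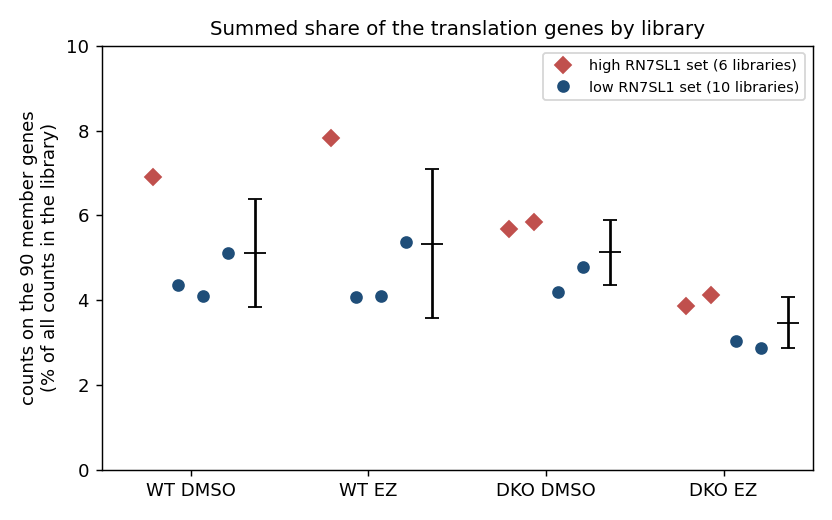
Counts on the 90 member genes as a percent of all counts, for each library by group, with diamonds for the 6 libraries of the high RN7SL1 set, circles for the 10 of the low set, and bars for the mean and SD of 4 libraries. The 4 DKO EZ libraries lie between 2.87% and 4.11%, and within each group the high set lies above the low set.

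Per kilobase of transcript, RPL7A had the highest mean level over the 16 libraries, 2937 CPM per kb, and RPLP0 and EEF1A1, at 1706 and 1576 CPM per kb, were also among the highest. RPL3L, a muscle paralogue of RPL3, was at 0.221 CPM per kb. EEF1G had 0 to 2 counts per library, and all of its coding bases lie in another annotated gene on the same strand, as do 98.2% of those of RPL17. Over 30% of coding bases were shared in this way by 8 members, among them EEF1G, RPL17, RPL36A, RPL26, RPL22, RPS10 and RPS15A. Of the 10 members with the lowest counts among the 81 that are not paralogues, 5 were among these 8. The levels of these genes are therefore uncertain, since the counting of shared bases is not given in the sources used here.

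Members were higher in the high RN7SL1 set by a median of 0.35 on the log2 scale, with 72 of 86 positive, while the median over all genes tested was -0.04. The groups of 6 and 10 libraries did not overlap for 7 members higher in the high set (RPS24, RPL41, RPS20, RPL21, RPS2, RPSA and RPS26) and for 2 lower (RPL26 and RPS10). Of all genes, 1.58% were higher without overlap and 0.77% lower. RPS26, a small-subunit protein, was at 171 to 342 CPM in the high set and 29.9 to 55.9 CPM in the low set, a difference of 2.73. RPSA, the laminin-receptor homologue of the small subunit, was at 936 to 2080 against 271 to 421 CPM, a difference of 2.23.

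RPL26, a large-subunit protein at the peptide exit side of the ribosome, went the other way, at 18.9 to 29.9 CPM in the high set and 326 to 847 CPM in the low set (log2 difference -4.32). RPS10 of the small subunit was at 5.68 to 7.87 CPM against 33.0 to 54.9 CPM (-2.61). Both belong to the 8 members that share coding bases, with 60.7% and 56.9% shared, although the other 5 such members that passed the filter did not separate by set. At the narrow end, RPS9 and RPL22L1 differed between the sets by 0.02 and 0.05. Members with at least 20 named pseudogenes had a median set difference of 0.48 (27 members), those with 6 to 19 had 0.34 (30 members) and those with at most 5 had 0.24 (29 members), and across the 86 genes, which are not independent, Spearman's rho with the number of pseudogenes was 0.39. The 1663 named pseudogenes together held 0.0291% to 0.0650% of the counts of a library. With their counts added to the parent genes, 88 members passed the filter, and 44, 8 and 3 of them were lower in DKO against WT in EZ, in DKO against WT in DMSO and with EZ in DKO, against 44, 7 and 3 of 87 without this step. Of all 21526 genes tested after it, 2521, 2141 and 98 were lower in these comparisons.

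**Figure D2:**
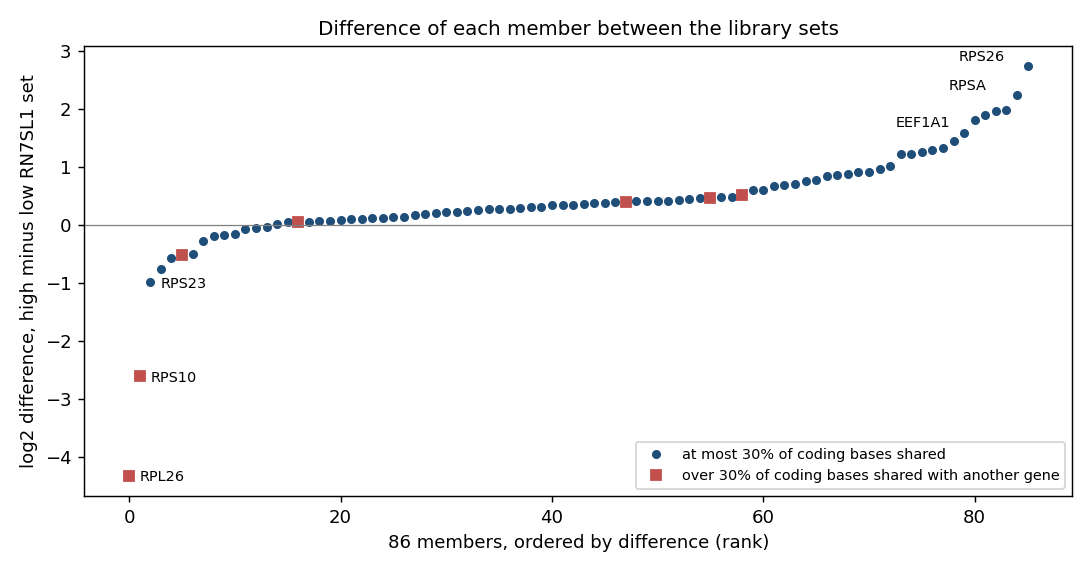
Log2 difference of each of 86 members between the 6 high and 10 low RN7SL1 libraries, group means removed, in rank order, with squares for members that share over 30% of their coding bases with another gene. Most members lie a little above 0, RPL26 and RPS10 lie at -4.32 and -2.61, and RPS26 and RPSA lie at 2.73 and 2.23.

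The comparison of DKO with WT under EZ asks how these genes differed between drug-treated DKO and WT cells, and it gave the most calls of the 5 comparisons. In edgeR's quasi-likelihood test with Benjamini-Hochberg adjustment over all genes, 44 of 87 members were lower in DKO and 0 higher, where 11.4% of the 21810 genes tested were lower and 9.29% higher. The median over members was -0.72 on the log2 scale, against -0.01 over all genes, and 84 of 87 fitted values were negative. The calls comprised 27 of 49 large-subunit members, 14 of 32 of the small subunit, 2 of 3 of the P stalk and 1 of 3 elongation factors. With a term for library set, 68 members were lower and 0 higher (12.6% of genes lower), including all 44. Within the 10 libraries of the low set, 23 were lower (4.02% of genes).

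EEF2 was the lowest of the elongation factors in this comparison. It stood at 7367, 4204, 4113 and 5609 CPM in WT EZ and at 2091, 1891, 1969 and 1940 CPM in DKO EZ. No library of one group reached the other, and EEF2 fell by 1.43 ± 0.18 (SE) on the log2 scale (adjusted p = 2.48e-05). EEF1A1 stood at 15591, 3275, 2982 and 4723 CPM in WT EZ and at 4733, 5039, 1892 and 1986 CPM in DKO EZ. The groups overlapped because the high-set libraries of DKO lay above low-set libraries of WT. Its log2 difference was -0.96 ± 0.63 (adjusted p = 0.333) without the library set term and -1.18 ± 0.22 (adjusted p = 0.000882) with it, so the call for EEF1A1 rests on that term. EEF1B2 stood at 359, 97.3, 90.5 and 149 CPM in WT EZ against 159, 194, 87.3 and 87.1 CPM in DKO EZ, with adjusted p = 0.656, or 0.0569 with the set term.

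Among large-subunit members, RPL13A, which is also known for a role outside the ribosome in silencing inflammatory messages, fell the most. Its levels were 2956, 1806, 1739 and 2828 CPM in WT EZ and 757, 861, 794 and 804 CPM in DKO EZ. The groups did not overlap, and RPL13A fell by 1.54 ± 0.19 (adjusted p = 2.05e-05). RPL4 was at 3264, 1794, 1682 and 2427 CPM in WT EZ and at 965, 1039, 876 and 889 CPM in DKO EZ. RPL4 fell by 1.28 ± 0.20 (adjusted p = 0.000175), again without overlap. RPL13, RPL3, RPL7A, RPL23A and RPL28 also fell, with log2 differences of -1.21, -1.19, -1.16, -1.14 and -1.07 and adjusted p between 5.3e-05 and 0.00308. The positive values were those of RPL36A, RPL41 and RPL3L, none past the test. At the small end of the calls were RPL22, its paralogue RPL22L1 and RPL7L1, with log2 differences of -0.57, -0.51 and -0.40 (adjusted p = 0.0275, 0.0382 and 0.0483).

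On the small subunit, RPS9, a protein of the decoding region, was at 437, 292, 302 and 417 CPM in WT EZ and at 119, 157, 167 and 172 CPM in DKO EZ. RPS9 fell by 1.24 ± 0.16 (adjusted p = 4.05e-05) with no overlap of the groups. RPS16 and RPS19, the latter mutated in Diamond-Blackfan anaemia, fell, with log2 differences of -1.10 and -0.98 (adjusted p = 0.000503 and 0.000355). RPSA was at 2080, 316, 300.5 and 421 CPM in WT EZ and at 936, 1170, 278 and 271 CPM in DKO EZ. The library sets outweighed the genotypes for this gene. Its difference of -0.23 ± 0.86 (adjusted p = 0.893) became -0.57 ± 0.16 (adjusted p = 0.0146) with the set term. In the P stalk, RPLP1 and RPLP2 fell, with log2 differences of -0.76 and -0.73 (adjusted p = 0.0184 and 0.00649), and RPLP0 had a difference of -0.45 (adjusted p = 0.158, or 0.0419 with the set term).

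Over all members, the DKO EZ and WT EZ libraries did not overlap for 42 of 87, all lower in DKO, where 13.4% of genes were lower without overlap. Leaving out each library in turn gave 30 to 45 members lower, the fewest without DKO EZ replicate 3, and 29 members passed in all 16 such fits, among them EEF2, RPL13A, RPL4, RPL3 and RPS9. The other 15 lost the call in 1 to 15 of the 16, RPL7L1 and RPL8 most often (15 and 14). Over all genes, 1480 to 2507 were lower in these 16 fits, against 2481 with all libraries. Scaling by library totals alone moved the median of all genes to 0.23 and their split from 2027 higher and 2481 lower to 3966 and 1183. The members' median was -0.47 under that scaling and lay 0.70 below that of all genes under both scalings.

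**Figure D3:**
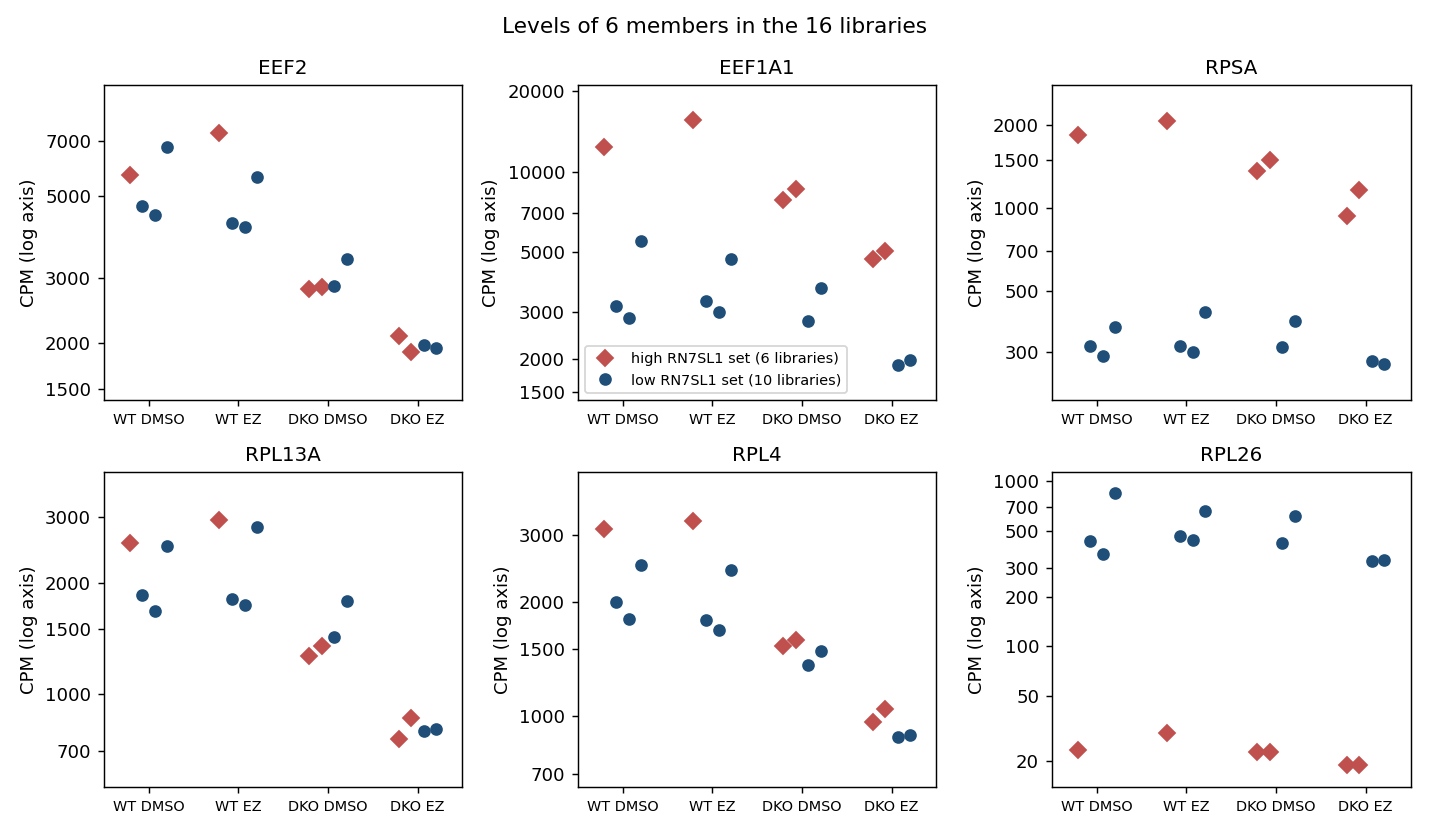
Levels of EEF2, EEF1A1, RPSA, RPL13A, RPL4 and RPL26 in CPM on log axes, for each of the 16 libraries by group, with diamonds for the high and circles for the low RN7SL1 set. For EEF2, RPL13A and RPL4 the 4 DKO EZ libraries lie together below all others, while EEF1A1, RPSA and RPL26 separate first by library set.

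Without drug fewer members passed. In DMSO, 7 members were lower in DKO and 0 higher, against 9.7% of genes lower and 8.91% higher, so the share of members called (7 of 87) was near the background. The members' median was -0.14, against -0.06 over all genes. EEF2 stood at 5685, 4679, 4434 and 6781 CPM in WT and at 2791, 2824, 2854 and 3375 CPM in DKO. The groups did not overlap, and EEF2 fell by 0.87 ± 0.18 (adjusted p = 0.00231), a call that held in each of the 16 fits without 1 library, with adjusted p of at most 0.0182.

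The other calls in DMSO were RPL4, RPL13, RPL13A and RPL3, with log2 differences of -0.66, -0.62, -0.56 and -0.52, RPS19, with -0.49, and RPS4Y1. Adjusted p of these 5 genes besides RPS4Y1 lay between 0.0241 and 0.0438. These 5 calls did not hold when single libraries were left out. Only EEF2 and RPS4Y1 were lower without any 1 of WT DMSO replicates 1 and 4, DKO DMSO replicates 1, 2 and 3, WT EZ replicate 4 or DKO EZ replicates 2, 3 and 4. The count was 3 without WT DMSO replicate 2, DKO DMSO replicate 4 or DKO EZ replicate 1, 4 without WT EZ replicates 2 or 3, 5 without WT EZ replicate 1 and 8 without WT DMSO replicate 3. Over all genes, 1127 to 1906 were lower in these fits, against 2115 with all libraries. EEF1A1 (12348, 3153, 2839 and 5517 CPM in WT and 7836, 8595, 2764 and 3659 CPM in DKO) differed by -0.06 ± 0.63 (adjusted p = 0.964). The groups overlapped, with 3 of the 4 DKO libraries inside the WT range and replicate 3 just below it.

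With the library set term, 14 members were lower in DMSO (10.5% of genes lower), and within the low set 2 were (3.93% of genes). RPL36AL, a paralogue of RPL36A, was at 75.9, 48.6, 47.6 and 62.8 CPM in WT and at 56.1, 55.0, 27.2 and 26.0 CPM in DKO. It gained the lowest adjusted p of the members called only with the term, 0.00141 for a difference of -0.76 ± 0.15, where the test without the term gave 0.213. The sign of the members' median in DMSO depended on the scaling: it was 0.07 with library totals alone, where all genes had a median of 0.14, and it lay below the median of all genes by 0.07 to 0.09 under 5 scalings without the set term.

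**Figure D4:**
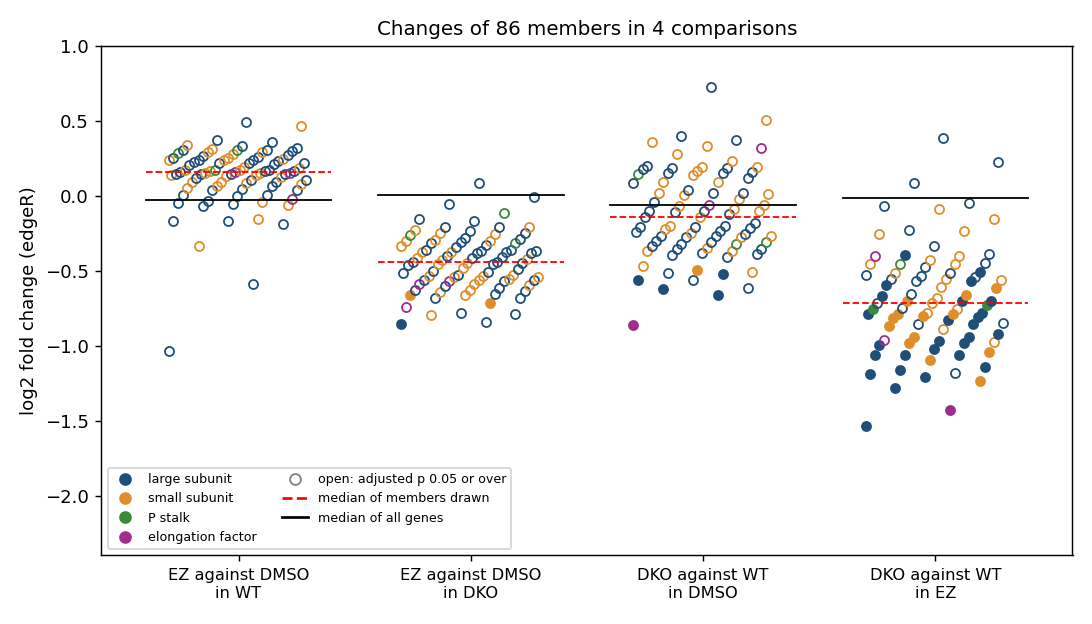
Log2 fold changes of 86 members (RPS4Y1 not drawn) in 4 comparisons, coloured by role, filled where the adjusted p was under 0.05, with the members' median as a dashed line and the median of all genes as a solid line. Filled points are most numerous for DKO against WT in EZ, where 44 members including RPS4Y1 were lower, and absent for EZ against DMSO in WT.

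The drug was then compared with solvent within each genotype. In DKO cells 86 of 87 fitted differences were negative, with a median of -0.45 against 0.01 over all genes. Only 3 members passed the test, all lower (0.445% of genes were lower and 1.03% higher), namely RPL13A, RPS9 and RPS4X, a small-subunit protein encoded on the X chromosome. RPL13A was at 1269, 1344, 1427 and 1780 CPM in DMSO and, as above, at 757 to 861 CPM in EZ. It fell by 0.86 ± 0.19 (adjusted p = 0.0306) without overlap. RPS9 (237, 251, 243 and 279 CPM in DMSO) fell by 0.71 ± 0.16 (adjusted p = 0.036). RPS4X was at 1230, 1197, 1078 and 1296 CPM in DMSO and at 770, 743, 755 and 766 CPM in EZ, and fell by 0.66 ± 0.15 (adjusted p = 0.031). For each of these 3 genes every EZ library lay below every DMSO library, as was true of 29 members in all (4.41% of genes).

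Replicates of the same number deviated together within a genotype, which is also how the library sets fall. With the replicate number as a block within genotype, 54 of 87 members were lower with EZ in DKO and 0 higher (3.12% of genes lower), in place of 3. With the library set term instead, 14 were lower (0.825% of genes). EEF1A1, at 7836, 8595, 2764 and 3659 CPM in DMSO and 4733, 5039, 1892 and 1986 CPM in EZ, was lower with EZ within every replicate number. Its difference was -0.74 ± 0.63 (adjusted p = 0.703) without the block, and with it EEF1A1 fell by 0.73 ± 0.11 (adjusted p = 0.00251). EEF2 (adjusted p = 0.118) and EEF1B2 (0.73) likewise passed only with the block, where their log2 differences were -0.58 and -0.56 (adjusted p = 0.0111 and 0.0028). None of the 3 P stalk genes passed in either fit.

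The number called for the drug in DKO depended on single libraries and on the set of libraries used. No member passed without any 1 of the 4 DKO EZ libraries, of DKO DMSO replicates 2, 3 and 4, or of WT DMSO replicate 2. The count was 1 without DKO DMSO replicate 1, WT EZ replicate 2 or WT EZ replicate 4, and 2 without WT DMSO replicate 1 or WT EZ replicate 3. Across all fits without 1 library, 24 to 135 genes were lower, against 97 with all libraries. Within the low set, 0 of 87 passed edgeR's test (0.0128% of genes lower), with 34 lower and 0 higher at an unadjusted p under 0.05, against 2.56% and 3.82% of genes (2 DKO libraries a group). DESeq2 on all libraries called 4 lower (1.21% of genes). Inside a library set, with 2 libraries against 2, the number of genes without overlap can only stay the same or rise. There, 74 of 87 members were lower in EZ without overlap among the low-set DKO libraries (17.6% of genes). Among the high-set ones 68 of 87 were (21.6% of genes).

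In WT cells the drug gave no member past the threshold in edgeR (2.25% of genes higher and 1.07% lower) or DESeq2. At an unadjusted p under 0.05, 2 members were higher and 2 lower, against 9.26% and 6.36% of genes. The median of members was 0.16, against -0.03 over all genes, and 73 of 87 values were positive. EEF2 was at 4434 to 6781 CPM in DMSO and 4113 to 7367 CPM in EZ (log2 difference -0.02 ± 0.18, adjusted p = 0.974). With the block within genotype, RPL8, RPL36 and RPS4Y1 were higher (7.67% of genes higher) and RPL10L, a paralogue of RPL10, was lower (4.44% of genes lower). RPL8 and RPL36 rose by 0.34 ± 0.10 and 0.29 ± 0.08 (adjusted p = 0.0404 and 0.0323). RPL10L was at 5.01, 4.90, 4.24 and 4.86 CPM in DMSO and 3.66, 3.00, 2.94 and 3.06 CPM in EZ, without overlap, and fell by 0.59 ± 0.15 (adjusted p = 0.0245).

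**Figure D5:**
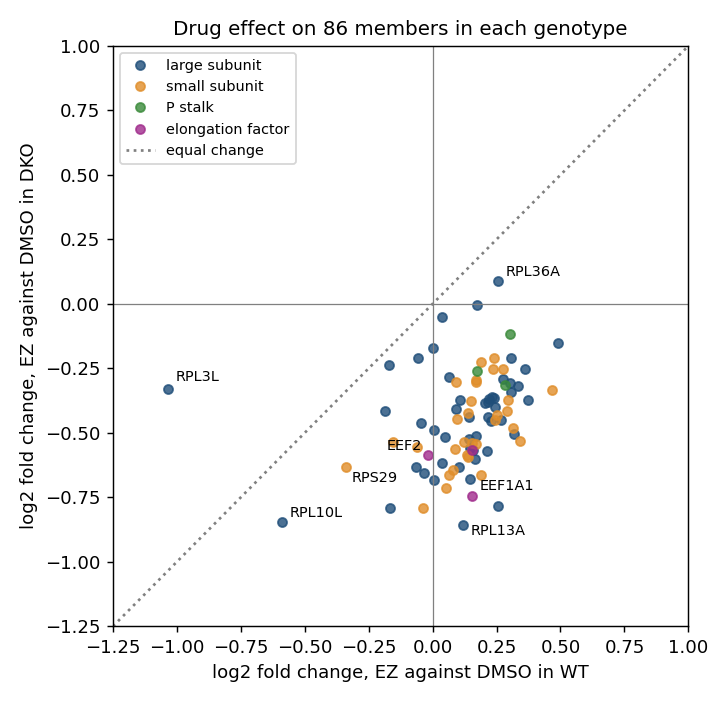
Log2 fold change of 86 members with EZ in WT (horizontal axis) and in DKO (vertical axis), coloured by role, with the dotted line where both are equal. Most members lie in the lower right, slightly above 0 in WT and below 0 in DKO, and RPL3L alone lies above the line of equal change.

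The interaction is the log2 change with EZ in DKO cells less that in WT cells. It was negative for 86 of 87 members, with a median of -0.62 against 0.01 over all genes. No member passed in edgeR or DESeq2, and edgeR called no gene at all. At an unadjusted p under 0.05, 35 members were lower and 0 higher, against 1.56% and 1.41% of genes. With the block within genotype 12 members were lower and 0 higher (0.124% of genes lower). RPL13A had the lowest adjusted p among them together with RPL10A, and its interaction was -0.95 ± 0.14 (adjusted p = 0.0293). The exception in sign was RPL3L, at 0.166 to 1.39 CPM over all libraries (interaction 0.70 ± 0.69, adjusted p = 1.00).

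In group means, 81 of 86 members had their lowest level in DKO EZ, a count for which the share over all genes was not computed. The other 5 were RPL36A, RPL41, RPS20 and RPS26, lowest in WT DMSO, and RPL3L, lowest in WT EZ. RPL41, RPS20 and RPS26 are among the 7 members that separated by library set, and each WT group held 1 high-set library where each DKO group held 2. RPS20 was at 647, 147, 138 and 213 CPM in WT DMSO and 494, 477, 140 and 149 CPM in DKO EZ. Its difference between DKO and WT in EZ was -0.16 ± 0.72, and -0.49 ± 0.16 (adjusted p = 0.037) with the set term.

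Paralogues stood at different levels relative to their partners. Per kilobase, RPL22L1 was the more abundant of its pair in each group, at 261 CPM per kb in WT DMSO against 61.4 for RPL22, and at 177 against 41.4 CPM per kb in DKO EZ. RPL22 shares 59.4% of its coding bases with another annotated gene, so its level is uncertain. RPL36AL exceeded RPL36A, at 78.7 against 9.02 CPM per kb in WT DMSO, where RPL36A shares 67.3% of its coding bases with a readthrough gene. RPL7L1, RPL26L1 and RPL10L stayed below RPL7, RPL26 and RPL10 in every group mean per kilobase. RPL26L1 kept 14.2 to 24.9 CPM in all libraries while RPL26 spanned 18.9 to 847 CPM. In the high RN7SL1 set both genes stood at similar levels, RPL26L1 at 19.8 to 24.9 CPM and RPL26 at 18.9 to 29.9 CPM. RPS27L, no member but a p53-induced relative of RPS27, was at 51.5 to 97.5 CPM in WT libraries and 15.1 to 23.4 CPM in DKO libraries and fell by 1.83 ± 0.19 in DMSO (adjusted p = 2.79e-06).

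Other genes of translation, and a list of respiratory chain subunits, which have another function, were counted in the same edgeR test. In DKO against WT in EZ, 11.4% of all genes were lower. Lower were 3 of 3 other ribosome genes (FAU and RACK1 among them, median -0.78), 20 of 25 other messages known to carry a TOP tract (median -0.71), 15 of 30 initiation factors (-0.39), 21 of 35 genes of ribosome biogenesis (-0.39), 7 of 15 snoRNA host genes (-0.43), 3 of 10 other elongation factors (-0.32), 21 of 77 mitochondrial ribosomal proteins (-0.30) and 15 of 67 respiratory chain subunits (-0.31). None of these lists had a gene called higher. The list of TOP messages holds those 3 genes, and shares genes with those of elongation factors, respiratory chain subunits and snoRNA hosts. RACK1, a scaffold on the small subunit, fell by 1.01, and EIF4B, an initiation factor counted here with the TOP messages, fell by 0.95 (adjusted p = 0.0204). EEF1A2, the second gene for the factor EEF1A, fell by 1.69 in EZ and differed by -1.81 in DMSO. In DMSO, where 9.7% of all genes were lower, 3 of 10 other elongation factors, 6 of 25 TOP messages, 9 of 30 initiation factors, 11 of 35 biogenesis genes and 3 of 15 snoRNA host genes were lower. The counts there were 7 of 77 for mitochondrial ribosomal proteins, with 1 higher, 4 of 67 for respiratory chain subunits and 0 of 3 for the other ribosome genes.

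With the drug in DKO, where 0.445% of all genes were lower, 3 of 25 TOP messages passed, EIF3E, EPB41L4A-AS1 and NAP1L1, with log2 differences of -0.67, -0.65 and -0.58, and the median of that list was -0.43. Medians there were -0.04 for initiation factors, -0.08 for ribosome biogenesis and for the mitochondrial ribosome, and -0.02 for respiratory chain subunits, with 0 genes called in these 4 lists. The median was -0.29 for the other ribosome genes and -0.08 for other elongation factors, with 0 genes called in either. For snoRNA host genes it was -0.27, with 1 of 15 lower. In WT, where 2.25% of all genes were higher with the drug and 1.07% lower, 1 TOP message was called, EIF4A2, which rose by 0.84 (adjusted p = 0.0103), and the median of that list was -0.03. In the same comparison 2 respiratory chain subunits were higher (list median 0.22), 1 snoRNA host gene was lower, and no gene of the other 5 lists passed. The interaction called 0 genes of any list. Its medians were -0.60 for the 3 other ribosome genes, -0.36 for TOP messages, -0.27 for snoRNA host genes and -0.25 for respiratory chain subunits. They were -0.17 for mitochondrial ribosomal proteins, -0.15 for ribosome biogenesis, -0.13 for other elongation factors and -0.07 for initiation factors, against 0.01 over all genes.

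The members were also divided by the scored tract at the start. In DKO against WT under EZ, 27 of 51 members with a tract were lower, with a median of -0.78, and 7 of 20 without, with a median of -0.61. With the library set term the medians were -0.82 and -0.72. RPL4 was among the lowest members. Its annotated start has no tract, although a run of C and T begins beyond the 3 bases scored. RPL26 has a tract of 12 bases. The difference between the tract classes was not tested.

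The member whose levels were most like those of EEF1A1 over the 16 libraries was RPL10, a large-subunit protein at the subunit interface, with a Pearson correlation of log2 CPM of 0.99, followed by RPL6 and RPS3A at 0.99 each and RPS7 at 0.98. Outside the members, the protein-coding genes most like it were TRMT112 (0.96), NUS1 (0.95), MORF4L1 (0.95), TBCA (0.94) and SNRPE (0.94). All 5 were higher in the high RN7SL1 set, by 0.70 (NUS1) to 1.44 (TBCA) on the log2 scale, as was EEF1A1 by 1.59, so these correlations share the split of the libraries described above.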

How the data were processed

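The authors deposited raw read counts per gene ID for each of the 16 libraries. STAR 2.7.3a and GRCh38 are named per the submitters' processing notes; the tool that counted reads, its strand setting and its annotation were not given in the sources used here. Symbols, coordinates and coding bases came from GENCODE release 29, which held 58503 of the 60676 IDs. The members and lists were chosen with earlier results of these data known. Named genes were the 4 elongation factors, the P stalk, RPSA, members past adjusted p 0.05 (the 10 highest and 10 lowest log2 fold changes where over 30 passed), extremes per comparison, paralogue pairs and the extremes of the library-set difference. Other members named for the library sets, the block fits or the order of groups, and other genes of translation named singly, were picked after their values were seen. A few genes that the rule would name are not reported here.

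Counts were fitted with edgeR 4.0.16 in R 4.3.3 (quasi-likelihood, TMM scaling, 1 mean per group, all 16 libraries, robust) after edgeR's filter for a minimum count of 10 and total of 15, which left 21810 genes, and p-values were adjusted by Benjamini-Hochberg over these. The common dispersion was 0.0787, or 0.0584 with a term for library set. CPM of members and of RPS27L are counts scaled by the library total and edgeR's TMM factor. CPM of RB1, the markers and RN7SL1 are counts scaled by the library total alone. Within a genotype, same-numbered libraries deviated together (r of 0.33 to 0.66, all above 0.1), so the numbers were taken as pairs there. WT DMSO replicate 2 (r of 0.33 with its own number) correlated better with a WT EZ library of another number. The other same-numbered libraries within a genotype correlated best with their own number. This pairing is inferred from the data, and pairs share their library set. DESeq2 1.42.0, other scalings, no filter, the set term, replicate blocks, the low set alone and leaving out each library were the alternatives. The scripts were tested on simulated data. Replicate libraries of a group differed by more than counting noise. Libraries held 11823438 to 47678648 counts, and p-values rest on the spread between libraries, not on counting error alone.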

Additional observations from a re-analysis of the deposited data

Results flagged for a closer look

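In 17 of 156 groups of 4 libraries, 1 library's level in CPM lay apart from the others by Dixon's test (critical ratio 0.829), where chance gives about 1 in 20 of independent groups. These groups are not independent, because the genes share the same libraries and some were named for their values. The 17 cannot be judged against that rate. WT EZ replicate 1, a library of the high RN7SL1 set, was the highest for EEF1A1 (15591), RPSA (2080), RPL10 (1267), RPS20 (861), RPL22 (127), RPL41 (46.2) and RPL10L (3.66). WT DMSO replicate 1, of the same set, was the highest for RPSA (1853), RPS20 (647), RPL7L1 (361), RPL27 (172) and RPL41 (28.4). Each WT group held 1 high-set library, so 12 of these 17 lay in the single high-set library of a WT group. The other 5 were EEF2 in DKO DMSO replicate 4 (3375), RPL8 in DKO DMSO replicate 3 (556), RPS29 in DKO DMSO replicate 2 (46.7), RPLP2 in DKO EZ replicate 2 (229) and RPL23A in WT EZ replicate 4 (172).

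The drug effect differed between the genotypes for 12 members in edgeR's test of the interaction with the replicate block within genotype. On the log2 scale, the effect in DKO minus that in WT was -0.95 for RPL13A and RPL10, -0.85 for RPS14, -0.80 for RPL10A, -0.79 for RPL7A, -0.77 for RPS9, -0.76 for RPL23, -0.74 for RPS15A, -0.72 for RPS4X, -0.70 for RPL32 and RPS3 and -0.67 for RPL28, with adjusted p from 0.0293 to 0.046. None of the 12 passed without the block, where the lowest adjusted p of any member was 1.00.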

How the results depend on the processing

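The counts below are members past adjusted p 0.05. Brackets that name genes give all genes called lower in the same fit, unless stated otherwise. These are of 21810 genes tested, of 22221 to 22807 with 1 library left out, or of the number given. For the drug in WT (0 members), the block within genotype gave 4 (7.67% of genes higher and 4.44% lower). The fit with the library set term gave 1 with upper-quartile scaling (584 genes) or library totals (597 genes). With single libraries left out that fit gave 0 to 1, the 1 being higher, without WT DMSO replicate 4 (1119 genes higher). For the drug in DKO (3, with 97 genes), the set term gave 14 (180 genes), upper-quartile scaling 8 (166 genes) and library totals 15 (158 genes). The plain replicate block gave 19 (373 genes) and the block within genotype 54 (681 genes). The low set alone gave 0 (3 of 23416 genes), and leaving out 1 library 0 to 3 (24 to 135 genes). The set-term fit of that comparison (14) gave 9 with DESeq2's size factors (164 genes) and 37 with upper-quartile scaling (376 genes). It gave 40 with library totals (337 genes) and 2 to 21 with 1 library left out (59 to 281 genes). For DKO against WT in DMSO (7, with 2115 genes), the set term gave 14 (2286 genes), DESeq2's size factors 3 (1876 genes) and library totals 2 (1082 genes). TMM without the members gave 2 (1623 genes), no filter 4 (1276 of 46997 genes) and the replicate block 14 (3221 genes). The low set alone gave 2 (920 of 23416 genes). Leaving out 1 library gave 2 to 8 (1127 to 1906 genes), or 8 to 15 with the set term (1253 to 1984 genes). For DKO against WT in EZ (44, with 2481 genes), the set term gave 68 (2750 genes) and the low set alone 23 (941 of 23416 genes). DESeq2's size factors gave 40 (2206 genes), upper-quartile scaling 38 (1952 genes), TMM without the members 37 (1957 genes) and library totals 33 (1183 genes). No filter gave 36 (1460 of 46997 genes) and DESeq2 gave 41 (2408 of 28764 genes). In that comparison, leaving out 1 library gave 30 to 45 (1480 to 2507 genes), or 49 to 73 with the set term (1649 to 2868 genes). The interaction (0, with 0 genes) gave 12 with the block within genotype (27 genes). The cause of these shifts was not tested.

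Across genotypes r was 0.23 to 0.67 for 6 same-numbered pairs, 5 of which correlated best with their own number, but -0.07 and -0.05 for replicate 2, so the numbers were not taken as pairs there. The plain replicate block gave 56 members lower in EZ (16.7% of genes) and 14 in DMSO (14.8% of genes). Of 2224 values of 84 single-gene results under the alternatives, 1942 kept the side of the threshold, 257 lost the call, 25 gained it and 0 called values reversed. Sign changes among values that were not called numbered 55. Levels of members that share coding bases with another gene are uncertain, and the number of calls for the drug in DKO depended on the setting.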
